A study of Mus musculus with 12 samples.

Results

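Section 2 was compared with section 1 of the same spleen in 3 mice, named F270, F262 and M267 in the labels, which carried VEC-Cre, an SB Transposase and the onc2 transposon. They are called SB mice below. The members were chosen by genotype label and by section: 6 of the 12 sequenced libraries, with each spleen giving 1 pair. The other 6 libraries were sections A and B of 3 control spleens, labelled WT, and are used only as the same measurement in spleens without the transposon system. All mice were given as C57BL/6, the labels state no age, and no label says where in the spleen a piece was cut. The stated question was whether each spleen was clonal as a whole, read from how alike the transcriptomes of its pieces are.

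Sleeping Beauty is a cut-and-paste DNA transposon system. The transposase moves copies of a mutagenic transposon to new genomic positions, where they can activate or interrupt genes, so that cells descending from 1 founder share insertions. VEC-Cre is a Cre recombinase driven by regulatory sequence of the VE-cadherin gene (Cdh5), which is active in endothelium, and endothelium of the embryo also gives rise to blood cells. Spleen tissue itself is not uniform: red pulp holds macrophages, sinuses and, in mice, red cell, platelet and granulocyte precursors, and white pulp holds B and T cell zones. A piece can therefore differ from its neighbour through the mix of compartments it contains as well as through the cells' own programme.

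The 6 SB libraries held 15364495 to 22031026 counts, with 22464 to 23767 genes detected in each. Sections of a spleen differed by more than counting noise, with a chi-square per degree of freedom of 35.0 in F270, 6.09 in F262 and 13.2 in M267 over genes with at least 20 counts, and none looked like 1 library deposited again. Xist, the RNA of the inactive X chromosome, stood at 962 to 2602 CPM (counts relative to the size of the library) in F270 and F262 and at 1.18 and 2.10 in M267, while the Y-linked Ddx3y was at 115 and 73.2 CPM in M267. The sections of each spleen thus carried the same sex-linked signature, as their names would have it. Spic, the transcription factor of red pulp macrophages, was detected in all 6 libraries, at 10.99 to 149 CPM, and the spleen-forming factor Tlx1 at 8.28 to 18.6 CPM. The section difference of F270 varied with transcript length more than that of any other spleen (Spearman's rho -0.36 across genes), followed by M267 (-0.27).

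The sections of an SB spleen were far more alike than libraries of different SB spleens. Over the 500 most variable genes, the root mean square difference of log2 CPM between sections was 0.71 in F270, 0.46 in F262 and 0.56 in M267, with a mean of 0.58. Between spleens it ran from 3.93 to 5.02, with a mean of 4.46, so that even the closest libraries of different spleens lay farther apart than any pair of sections. These genes were picked for their spread over the libraries compared. Over all tested genes the distance was 1.39 to 1.67 between spleens and averaged 0.42 within. The labelled pairing gave the smallest within-pair distance of all 15 ways of pairing the 6 libraries (exact permutation test, one-sided, p = 0.067, the smallest p this design allows). Left out in turn, each spleen gave a mean within-spleen distance of 0.56 to 0.63 for the remaining pairs. In the scaling of all 12 libraries, the section distances were 0.81, 0.58 and 0.67 in the SB spleens and 0.48, 0.69 and 0.68 in the WT spleens. These ranges overlapped, and the SB mean was 0.08 above the WT mean (exact permutation test, two-sided, p = 0.60, where 3 spleens against 3 cannot go below 0.10). The sign of that difference depends on the genes used, since it was -0.05 over all tested genes.

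**Figure D1:**
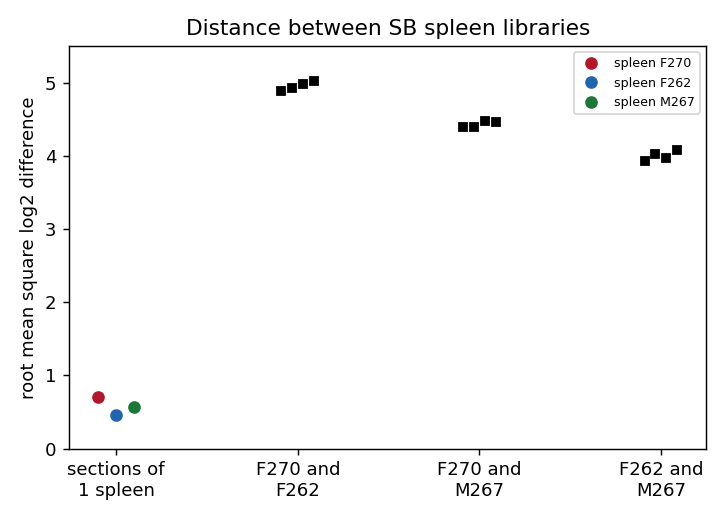
Root mean square log2 CPM difference (vertical axis, log2 units) between the sections of each SB spleen (coloured points) and between libraries of different spleens (black squares, 4 library pairs per pair of spleens). The 3 section distances lie between 0.46 and 0.71, and all 12 distances between spleens lie at 3.93 or above.

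Gene by gene, 11828 of 15280 tested genes (77.4%) were unequal between the 3 SB spleens (edgeR quasi-likelihood F test, Benjamini-Hochberg adjusted p under 0.05, with the spread between sections as the error), a comparison of these 3 spleens only. The genes that set 1 spleen apart were carried by both of its sections. Defined as genes whose mean over both sections was at least 8-fold above each of the other spleens, there were 129 such genes in F270, 224 in F262 and 65 in M267. Of these, 123 (95.3%), 224 (100%) and 65 (100%) were within 2-fold between sections, against 98.35%, 99.99% and 99.78% of all genes averaging 5 CPM or more in these spleens. The sections were thus about as alike for these genes as for genes at large, and slightly less so in F270. The definition used the level of the spleen and not the section difference, and it was chosen after the data were seen.

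Rab3b, a small GTPase of vesicle transport (ENSMUSG00000003411, chromosome 4, 108879063 to 108943324, GRCm38), stood at 1398 and 1585 CPM in sections 1 and 2 of F270. In the other 4 SB libraries it ran from 0.59 to 4.65 CPM, so only F270 was high, and both of its pieces were. Kif26b, a kinesin family member, was at 880.1 and 725 CPM in F270 and at 1.19 to 4.77 elsewhere. Scin, the actin-severing protein scinderin, was 501 CPM in section 1 and 275 in section 2 of F270, a log2(CPM + 1) difference of -0.86 that left both sections far above the 0.72 to 1.60 CPM of the other spleens. In M267, the secreted carbonic anhydrase gene Car6 read 1126 and 1373 CPM against 0.41 to 2.55 elsewhere. Dlk1, an imprinted Notch-family ligand, read 272 and 322 CPM in M267 and at most 0.88 elsewhere. In F262 the genes of this kind included class II antigen presentation and interferon gamma responses. H2-Eb1, a class II beta chain, was at 3599 and 3646 CPM in F262 and 49.0 to 62.6 elsewhere. Cxcl9, a chemokine induced by interferon gamma, was at 281 and 257 CPM in F262 and 1.00 to 2.91 elsewhere.

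**Figure D2:**
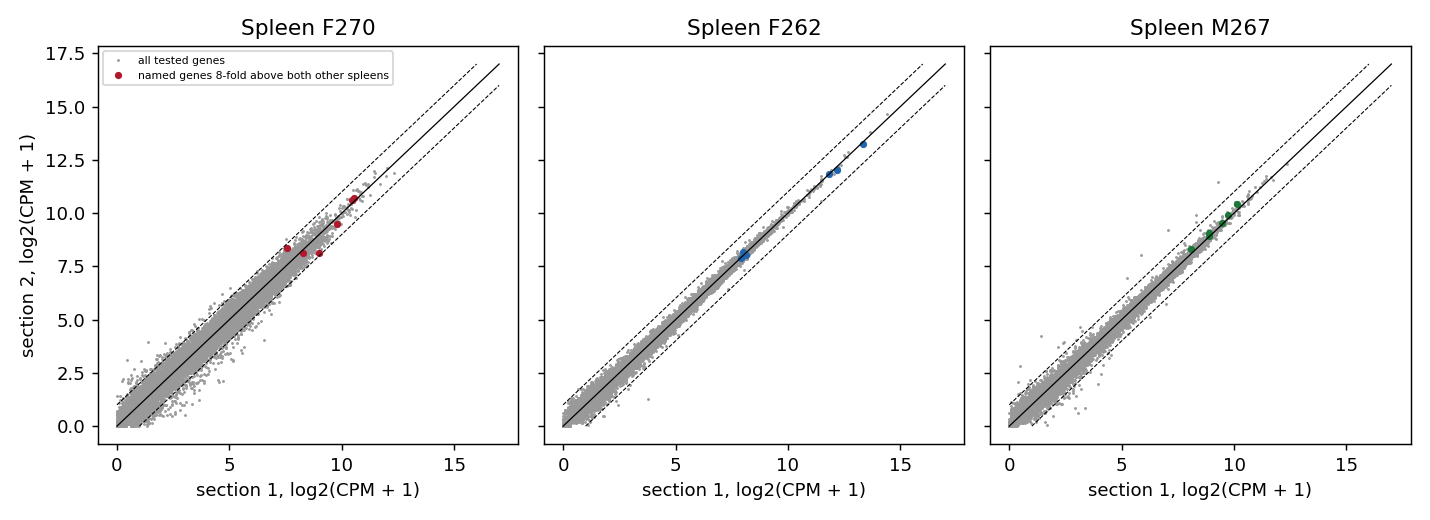
Expression in section 2 (vertical axis) against section 1 (horizontal axis), both as log2(CPM + 1), for each SB spleen; grey points are the 15280 tested genes, coloured points the named genes at least 8-fold above both other spleens, the solid line equality and the dashed lines 2-fold. The cloud is widest in F270 and narrowest in F262, and all coloured points lie inside the 2-fold lines.

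No gene passed the test for a shared difference between section 2 and section 1. Paired within spleens, 0 of 15280 genes (0%) were called at an adjusted p under 0.05 by edgeR's quasi-likelihood test, and the smallest adjusted p was 0.30. At an unadjusted p under 0.05 there were 2309 genes (15.1%), 1183 higher in section 2 (7.74%) and 1126 lower (7.37%). limma-voom called 0 genes and DESeq2 called 30, 19 higher and 11 lower, with no adjusted p for 12738 genes. On simulated counts of the same 6-library design, 167 of 200 genes changed by 2-fold were recovered and 116 of 200 changed by 1.5-fold, beside 26 and 23 false calls. In those counts 4.96% and 5.03% of unchanged genes had an unadjusted p under 0.05. They were drawn for each gene independently, without the relation to transcript length seen in the data. These shares thus give no expectation for the 15.1% in the data. The recovery rates hold for those counts only, and recovery of such changes in the measured libraries was not tested. The number of genes called in the data also turned on single spleens. Without F270 548 genes were called, without F262 806 and without M267 54. Those fits have 1 residual degree of freedom, and the estimated prior degrees of freedom, which set how far variances are pooled across genes, went from 6.06 to 134 or to infinity. The section numbers carry no stated position, so a shared direction across spleens would need the pieces to have been taken alike. Replicates are separate animals, but each section of a spleen is a single library.

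The genes with the smallest p that had the same sign in all 3 spleens are given as values, since none passed. The foremost on the higher side was Malat1, an abundant long noncoding RNA kept in the nucleus (ENSMUSG00000092341, chromosome 19, 5795690 to 5802672, GRCm38). It read 272 and 442 CPM in sections 1 and 2 of F270, 275 and 396 in F262, and 220.2 and 388 in M267. Each section 2 was above every section 1, and the groups did not overlap. The log2 difference was 0.68 (SE 0.09, unadjusted p = 7.93e-05, adjusted p = 0.30), and it was 0.67 without F270. Kcnq1ot1, a long antisense RNA that silences an imprinted domain on chromosome 7, went from 13.7 to 25.4, 7.20 to 10.8 and 11.8 to 24.0 CPM in the same order (log2 difference 0.85, SE 0.13). Its reads cannot be separated from those of Kcnq1, which it overlaps on the other strand, because the libraries are unstranded.

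Among coding genes on the higher side, Ahnak, which encodes a very large scaffold protein, read 105 and 139 CPM in F270, 148 and 199 in F262, and 41.1 and 60.0 in M267. Its paired log2(CPM + 1) differences averaged 0.46 ± 0.07 (SD, n = 3), with spleens differing more from each other than sections did. Plec, encoding the cytoskeletal linker plectin, averaged 0.41 ± 0.12, and Asl, encoding the urea cycle enzyme argininosuccinate lyase, 0.45 ± 0.04. Gtf2f1, a subunit of the general transcription factor TFIIF, averaged 0.45 ± 0.17. Rps16 and Rps10, proteins of the small ribosomal subunit, averaged 0.41 ± 0.08 and 0.52 ± 0.24. The rest of the 12 higher genes were Zfp771, Fam160b2, Dnah17 and the antisense transcript Etohd2, at 0.49 to 0.79.

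On the lower side the largest value belonged to Kcna3, the voltage-gated potassium channel Kv1.3 (ENSMUSG00000047959, chromosome 3, 107036169 to 107038070, GRCm38). It read 11.7 and 1.32 CPM in F270, 1.60 and 0.41 in F262, and 20.6 and 8.13 in M267. Section 2 was lower in each spleen, while the 2 groups of sections overlapped because the spleens began at different levels. The log2 difference was -2.0 (SE 0.33, unadjusted p = 0.00031, adjusted p = 0.30). It was -1.43 without F270, -2.0 without F262 and -2.74 without M267. Kcna3 passed the threshold in each of these fits, as did Chm. With 1 residual degree of freedom and variances pooled across genes, passing there adds no support. Prkg1, the cyclic GMP-dependent protein kinase, read 49.0 and 12.2 CPM in F270 but at most 1.89 in the other libraries, and its log2 difference was -1.69 with F270 and -0.99 without it (edgeR adjusted p = 0.32). Cnr1, the cannabinoid receptor 1 gene, was likewise a gene of F270, with 219 and 138 CPM there and 0.10 to 1.60 elsewhere, and its log2 difference of -0.70 was -0.95 without F270 (edgeR adjusted p = 0.42). Its value in section 2 of M267 is below the 3 counts taken as the detection floor.

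The remaining 9 lower genes were expressed in all 3 spleens or low in 1 of them. Slc39a10, a zinc importer, averaged -0.59 ± 0.27 (SD, n = 3) on the log2(CPM + 1) scale, and Chm, the Rab escort protein needed to prenylate Rab GTPases, -0.77 ± 0.41. Ids, a lysosomal sulfatase, averaged -0.48 ± 0.17 and Tmem106b, a lysosomal membrane protein, -0.37 ± 0.04. For Tmem106b the pairs were 70.1 and 54.0 CPM in F270, 97.0 and 76.6 in F262, and 78.1 and 58.3 in M267, close to the same ratio each time. Rp2, Nkapd1, St8sia4, Zfp169 and Cyyr1 lay at -0.43 to -0.86. From WT section A to B some of the genes named here moved the same way in all 3 spleens. Among them were Kcnq1ot1 (0.64, 0.86 and 0.42 in Ctrl1, Ctrl2 and Ctrl3) and St8sia4 (-0.35, -0.39 and -0.47). Others did not, such as Malat1 (-0.27, 0.28 and -0.23) and Prkg1, which was higher in each section B (0.40, 0.36 and 0.28).

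Among 44 gene lists, the cytosolic ribosomal proteins had the most members at a small p. These proteins build the small and large ribosomal subunits, and their mRNAs are short and typically begin with a run of pyrimidines through which translation is controlled. Of 20 listed genes tested, 13 had an unadjusted p under 0.05 with a higher value in section 2 and 0 with a lower value, and 15 were higher in all 3 spleens, against 7.74%, 7.37% and 22.3% of all tested genes. None passed after adjustment. The list median was 0.50 in F270, 0.10 in F262 and 0.24 in M267 on the log2(CPM + 1) scale, where the median of all genes was at most 0.01 in each. Over all 81 ribosomal protein genes tested, 54 were higher at that p and 0 lower.

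Rpsa, which encodes a small-subunit protein also known as a laminin receptor, read 26.8 and 51.1 CPM in F270, 15.3 and 18.6 in F262, and 22.3 and 29.9 in M267. Section 2 was higher in each spleen, most in F270 and least in F262. Rpl4, of the large subunit, read 2846 and 3838 CPM in F270, 1404 and 1552 in F262, and 2772 and 3076 in M267. Ribosomal protein genes together took 2.32% and 3.27% of the counts in the sections of F270, 1.26% and 1.32% in F262, and 2.20% and 2.65% in M267. Without F270, 45 of the 81 were higher at an unadjusted p under 0.05, with a median of 0.20, against 8.01% of all genes in that fit. Genes of this family have many processed pseudogenes, and how the counting split reads between near-identical copies is not known here.

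Start-site sequences were searched for a short pyrimidine run, CTTTC, and are printed for the 4 listed genes of smallest p whose window held it. RefSeq start sites on GRCm38.p6 were found for 14 of the 20 listed genes, and the window ran from 25 bases before to 30 bases after the start. Each sequence is 5′ to 3′ on the gene's strand, with CTTTC in capitals. The annotated start is the base after the first 25, so the match lies before it in Rpl5 and after it in the others, and none of the 4 matches begins at the annotated start.
Rpsa: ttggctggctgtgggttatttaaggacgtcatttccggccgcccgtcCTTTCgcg
Rpl10a: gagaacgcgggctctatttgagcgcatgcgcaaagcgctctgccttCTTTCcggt
Rpl13a: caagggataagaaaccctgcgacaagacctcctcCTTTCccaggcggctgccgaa
Rpl5: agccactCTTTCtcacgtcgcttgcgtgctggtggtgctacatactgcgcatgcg
These lie at chr9:120127741-120127795 (plus strand), chr17:28328540-28328594 (plus), chr7:45128716-45128770 (minus) and chr5:107900503-107900557 (plus). CTTTC was in 5 of the 18 start-site windows of the list (27.8%), in 22 of 77 windows of all ribosomal protein genes in the table (28.6%) and in 7.24% of all 32851 windows. Its reverse complement GAAAG was in 5.56%, 10.4% and 6.86% of the same windows. The match describes the letters in the window only.

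Section differences in the SB spleens also followed transcript length and base composition, both taken from the longest annotated transcript of each gene. In the quintile of shortest genes (1711 bases or less) the median difference was 0.25 in F270, 0.04 in F262 and 0.12 in M267 on the log2(CPM + 1) scale, and in the quintile of longest genes (5048 bases or more) it was -0.20, -0.01 and -0.06. In WT spleens the same medians ran from 0 to 0.03 and from -0.04 to 0. Across genes, Spearman's rho between length and difference was -0.36 in F270, -0.09 in F262 and -0.27 in M267 over 15254 genes, against -0.01 to -0.06 in the WT spleens. For GC content the rho was 0.23, 0.23 and 0.33 in the SB spleens and 0.11 to 0.25 in the WT spleens. These are correlations across genes of 1 library pair, and genes are not independent replicates. The ribosomal protein genes are among the short ones. Length and GC were also fitted as offsets in each library, an alternative added after the data were seen. The longest transcript can exceed the expressed one, so how far the offsets removed length was not tested. With the offsets 36 of the 81 ribosomal protein genes were higher at an unadjusted p under 0.05, 0 lower, and the median was 0.25. In that fit 6.43% of all genes were higher at that p, and 0 genes were called. The part of RNA quality in these differences was not tested.

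**Figure D3:**
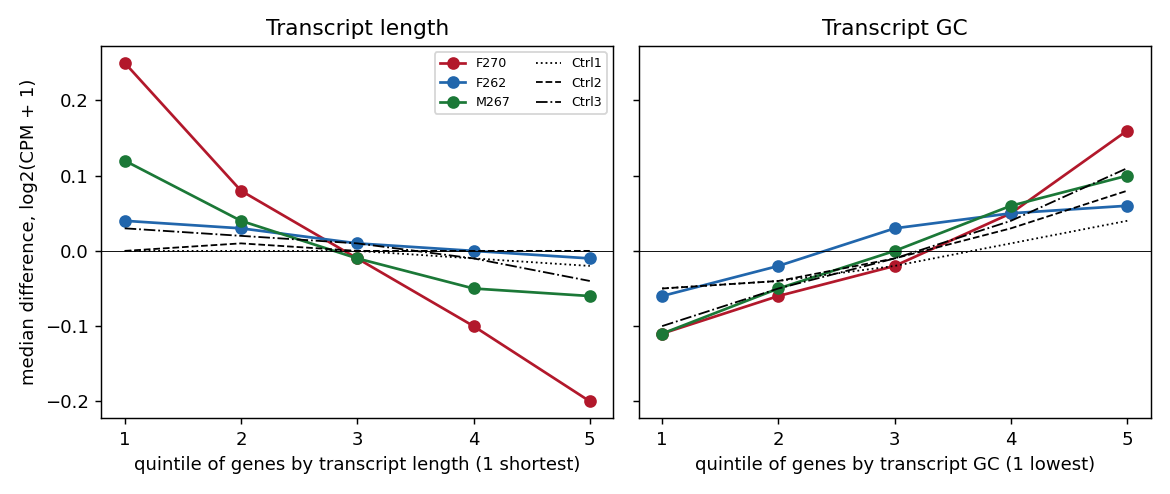
Median section difference (vertical axis, log2(CPM + 1), section 2 minus 1 in SB and B minus A in WT spleens) by quintile of genes, ordered by transcript length (left) and GC content (right). The line for F270 runs from 0.25 for the shortest to -0.20 for the longest quintile, and the WT lines stay within 0.04 of 0 for length.

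Most blood cell lists had medians of both signs across the SB spleens. Adult globins (0.35, 0.24 and 0.13 in F270, F262 and M267), mature neutrophil genes (0.11, 0.16 and 0.04) and dendritic cell genes (0.33, 0.06 and 0.03) had positive medians in each. Among 18 megakaryocyte and platelet genes, 7 were higher in section 2 at an unadjusted p under 0.05 and 0 lower (7.74% and 7.37% of all genes), though the list median was -0.02 in F270, 0.25 in F262 and 0.10 in M267. Itga2b, the alpha chain of the platelet fibrinogen receptor, read 2152 and 2590 CPM in F270, 213 and 278 in F262, and 2754 and 3467 in M267, higher in section 2 each time. Pf4, a platelet chemokine, read 338 and 482, 213 and 245, and 713 and 910.1 CPM. Without F270, 10 of the 18 were higher at that p, against 8.01% of all genes in that fit. In tissue RNA, more cells of a type and more RNA per cell cannot be told apart.

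Erythroid genes, which code for the red cell membrane and its regulators, had 1 member higher and 3 lower of 20 at that p. Of all genes 7.74% were higher and 7.37% lower. Without F270 5 erythroid genes were higher and 3 lower, where 8.01% and 8.41% of all genes were. The erythroid median was -0.28 in F270 and 0.04 in both F262 and M267. Slc4a1, the red cell anion exchanger, read 596 and 353 CPM in F270, 4574 and 4395 in F262, and 67.2 and 57.0 in M267. The alpha globin gene Hba-a1 ran the other way, at 378 and 545, 5732 and 6784, and 107 and 119 CPM, and it codes for a much shorter mRNA. A list of 10 neutrophil granule genes held primary granule genes, such as Mpo, and secondary granule genes of later stages, such as Ltf. Its median was 0.36 in F262, -0.26 in F270 and 0.01 in M267. At an unadjusted p under 0.05, 2 of 10 were higher, and 6 of 10 without F270 (7.74% and 8.01% of all genes). Mpo, the myeloperoxidase gene, read 125 and 173 CPM in F262, 74.7 and 59.9 in F270, and 176 and 157 in M267. The primary granule gene Prtn3 was higher in section 2 of F270, at 361 and 491 CPM, while Elane and Ctsg were lower there.

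B cell genes differed between sections in different directions in the 3 spleens. The B cell list, 14 genes including the B cell receptor chain Cd79a, had a median of 0.53 in F270, -0.27 in F262 and -0.09 in M267, with 0 genes at an unadjusted p under 0.05. Without F270 3 of the 14 were lower at that p (8.41% of all genes in that fit), and the median of the fitted log2 differences was -0.23 in place of 0.05. Ms4a1, which encodes CD20, read 4.55 and 7.02 CPM in F270, 12.95 and 7.28 in F262, and 7.55 and 6.96 in M267. The list median was thus highest in F270 and lowest in F262. Of 12 plasma cell genes, 3 were lower at that p, against 7.37% of all genes: Jchain, Ighg1 and Ighg2b. Jchain, the joining chain of secreted antibodies, read 51.95 and 46.4, 537 and 419.5, and 105 and 85.7 CPM. Without F270, 5 of the 12 were lower at that p, against 8.41% of all genes in that fit.

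Endothelial genes had list medians below 0 in each SB spleen, and stromal lists varied. Of 16 endothelial and sinus genes, 0 were higher and 5 lower at an unadjusted p under 0.05 (Clec14a, Tek, Cdh5, Emcn and Kdr), against 7.74% and 7.37% of all genes, with medians of -0.23, -0.02 and -0.05 in F270, F262 and M267. With length and GC offsets 2 of the 16 were lower and 1 higher, and without F270 the count was also 2 lower and 1 higher. Of all genes 5.29% were lower and 6.43% higher with the offsets, and 8.41% and 8.01% without F270. Cdh5, the VE-cadherin gene whose regulatory sequence drives the Cre (ENSMUSG00000031871, chromosome 8, 104101625 to 104144511, GRCm38), read 60.6 and 45.4 CPM in F270, 50.3 and 45.9 in F262, and 180.5 and 163 in M267. Its log2 difference was -0.23 (SE 0.09, adjusted p = 0.31). Kdr, a receptor for vascular endothelial growth factor, read 41.6 and 25.1, 28.2 and 24.5, and 124 and 120.5 CPM. Pi4ka, the lipid kinase named in the title of the study (ENSMUSG00000041720, chromosome 16, 17280351 to 17406314, GRCm38), read 120 and 90.3, 102 and 111, and 133 and 140.2 CPM, with a log2 difference of -0.07 (SE 0.12, adjusted p = 0.80).

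Spleen stroma identity factors, transcription factors that build the organ's mesenchyme, had medians of -0.18, -0.12 and -0.24, with 2 of 7 lower at an unadjusted p under 0.05, against 7.37% of all genes. Without F270 1 of the 7 was lower at that p, where 8.41% of all genes were. Wt1, a member of this list that is also a mesothelial marker, read 8.09 and 6.14 CPM in F270, 11.6 and 10.5 in F262, and 5.92 and 3.21 in M267. Capsule and trabecula smooth muscle genes had medians of -0.03, 0.09 and -0.13, white pulp stroma genes 0.08, -0.13 and 0.09, and collagen and matrix genes -0.41, 0.12 and -0.13. Red pulp macrophage genes had 3 of 15 lower at that p and 0 higher, and 4 lower without F270 (8.41% of all genes in that fit). Vcam1, an adhesion molecule of these macrophages and of stroma, read 177 and 109 CPM in F270, 1992 and 1889.7 in F262, and 443 and 366 in M267. Slc40a1, the iron exporter ferroportin, read 60.1 and 44.4, 1368 and 1329, and 325 and 261.8 CPM. The complement gene C1qa was nearly level, at 65.9 and 59.4, 2909 and 2919, and 107 and 101 CPM.

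**Figure D4:**
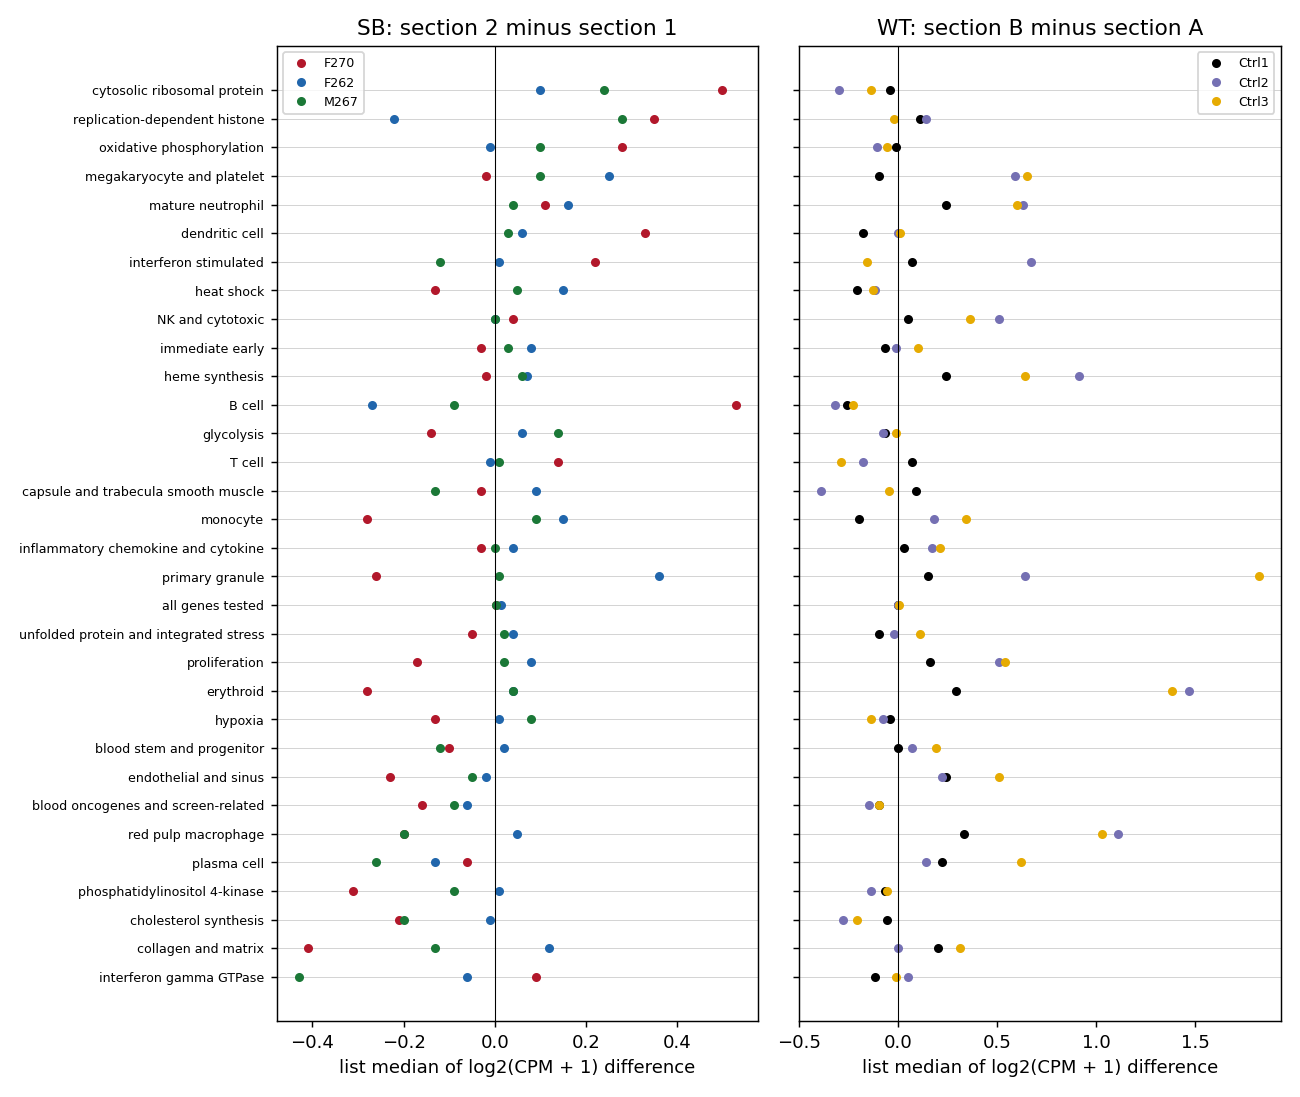
Median log2(CPM + 1) section difference (horizontal axis; the axes of the panels differ in range) of each gene list with at least 8 tested genes, in the 3 SB spleens (left) and the 3 WT spleens (right). Lists are ordered by the SB median; ribosomal proteins stand at 0.50, 0.10 and 0.24 in SB spleens and below 0 in all 3 WT spleens.

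Among the SB spleens, large section differences were most frequent in F270. At least 2-fold apart on the log2(CPM + 1) scale, counting only genes that averaged 5 CPM or more, were 180 of 10899 genes in F270 (1.65%), 1 of 11353 in F262 (0.00881%) and 24 of 10924 in M267 (0.22%). The same count was 9, 261 and 173 in the WT spleens. There is 1 pair per spleen, so these counts carry no test. In F270, 59 genes were higher in section 2 and 121 lower. The 59 had a median transcript length of 1460 bases and the 121 of 4722, against 3434 for all genes counted there. Of the 121 lower genes, 110 were also lower in section 2 of M267 and 79 in F262, where 49.2% and 45.6% of all genes counted in F270 were lower. Of the 59 higher genes, 45 were also higher in M267 and 36 in F262, where 50.8% and 54.4% were. In each direction 1 gene was 2-fold apart the same way in M267 and 0 in F262.

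In F270 the largest drops were in Pdpr, Vcl, Zfp871, Alg10b, Nr2c2 and Mfsd4a. Vcl, the focal adhesion protein vinculin, read 92.7 and 15.7 CPM in F270, a log2(CPM + 1) difference of -2.49, against 49.0 and 56.8 in F262 and 205 and 155 in M267. Pdpr, a regulator of pyruvate dehydrogenase phosphatase, read 24.9 and 3.32 CPM in F270. The largest gains were in Tnni3, Itln1, Ighg3, Snhg20, Tmsb10 and Lsm7. Tnni3, the cardiac troponin I gene, read 24.3 and 73.4 CPM in F270 and 33.8 and 34.8 in F262. Itln1, a secreted lectin, read 16.7 and 49.5 CPM in F270 and 5.89 and 7.08 in F262. Ighg3, an immunoglobulin heavy chain constant region, was higher in section 2 of F270 (19.1 and 54.3 CPM) and lower in section 2 of M267 (74.7 and 33.3 CPM).

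In F262 the gene 2-fold apart was Gpc2, a heparan sulfate proteoglycan gene outside the naming rule, at 12.5 and 1.45 CPM. The largest gains were in Marco, Bicra, Vill, Fam160b2, Cd300lf and Mmp9, and the largest drops in Nts, Ms4a1, Mgp, Ly6d, Gpm6b and Tnfsf8. Marco, the scavenger receptor of marginal zone macrophages, read 133 and 217 CPM, against at most 6.46 in the other SB spleens. Mmp9, a matrix metalloproteinase of neutrophils, read 83.2 and 124 CPM. Nts, which encodes the peptide neurotensin, read 33.2 and 18.7 CPM, and the B cell gene Ly6d 12.8 and 7.90.

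In M267 the largest gain among genes eligible to be named (no predicted genes or V segments) was in Lars2, the mitochondrial leucyl-tRNA synthetase gene, from 311 to 952 CPM, a log2(CPM + 1) difference of 1.61. Outside that rule, the ribosomal RNA gene CT010467.1 and its neighbour Gm26917 read 622 and 2839 and 313 and 765 CPM there, and the difference of CT010467.1, 2.19, was larger than that of Lars2. Genes of ribosomal RNA type took 0.127% and 0.493% of counts in M267, 0.583% and 0.627% in F270, and 0.383% and 0.26% in F262. These libraries were made by poly-A selection, and the part of residual ribosomal RNA in the M267 values was not tested. By the same naming rule Kcnq1ot1, Malat1, Rpl39, Mrpl27 and Trbc2 came next, at 0.96 to 0.78. The largest drops were in Kcna3, Ighg1, Sfrp1, Ighg3, Lmbrd2 and Ubd. Ighg1 read 123 and 51.8 CPM, and Sfrp1, a secreted Wnt inhibitor of stroma, 22.2 and 9.06. Interferon gamma GTPases had a list median of -0.43 in M267. Iigp1 is an example, with 18.0 and 10.4 CPM there and 236 and 224 in F262.

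The use of antigen receptor V segments was compared between sections. Many B or T cell clones can share a V segment, so segment use does not identify a clone. The overlap of Ighv segment use, the sum over segments of the smaller share in either section, was 68.7% in F270, 89.5% in F262 and 69.0% in M267, against 88.9% to 90.2% in the WT spleens. Counts were fewer there, with 2103 and 564 Ighv counts in F270, 5180 and 3164 in M267, 5392 and 6994 in F262 and 16686 to 29650 in WT libraries. For Igkv segments the overlap was 75.1%, 89.9% and 65.7%, against 89.4% to 93.5% in WT. For Trbv segments it was 90.9% in F270, 81.3% in F262 and 83.2% in M267, against 90.9% to 92.9% in WT, so the order of the spleens differed from that of the immunoglobulin segments. Between libraries of different SB spleens the overlap ran from 37.8% to 53.3% for Ighv, 46.6% to 60.45% for Igkv and 28.6% to 85.1% for Trbv. The largest Trbv value between spleens was thus above the section overlap of F262 and M267. The overlap was not tested and was computed after the data were seen.

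Single segments show which shares moved. In F270, Ighv1-18 made up 6.42% of Ighv counts in section 1 (exact 95% interval 5.41 to 7.55) and 1.24% in section 2. Ighv1-64 made up 2.81% in section 1 and 14.4% in section 2 (11.6 to 17.5). In F262, Ighv1-9 led in both sections, at 17.2% (16.2 to 18.2) and 14.7% (13.9 to 15.6). Trbv13-2 took 59.8% of Trbv counts in section 1 of F270 and 51.2% in section 2, so the same T cell receptor segment led in both pieces. It also led in both sections of M267, at 56.0% and 50.0% of 150 and 102 Trbv counts, so this was not particular to F270. Trbv13-2 read 71.0 and 37.8 CPM in F270. The T cell receptor constant genes were low there, Trbc2 at 1.06 and 3.70 CPM and Trbc1 at 2.01 and 4.76. The T cell gene Cd3e read 1.53 and 1.38 CPM. Whether the Trbv13-2 reads of F270 come from rearranged receptors was not tested. Reads without molecular identifiers are not independent molecules, so these intervals cover counting error only.

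The same comparison in WT spleens gave called genes, and for some the section effect differed from that in SB spleens. In 1 fit of all 12 libraries, 1397 of 16787 genes (8.32%) were called between WT sections B and A, 922 higher in B (5.49%) and 475 lower (2.83%), and 0 genes (0%) between the SB sections (3367 at an unadjusted p under 0.05, 20.1%: 9.28% higher in section 2 and 10.8% lower). The test of the difference itself, SB section effect minus WT section effect, called 206 genes (1.23%), 45 with the SB effect above the WT effect (0.268%) and 161 below (0.959%). At an unadjusted p under 0.05 these shares were 17.1% in all, 6.83% above and 10.3% below. With length and GC offsets the 275 calls were 145 above and 130 below, so the split between directions depended on that setting. Pairing SB section 2 with WT section B follows their descriptions as piece 2, and whether these pieces match in position is not stated. This test also rested on single spleens: it called 512 genes without F270, 362 without F262 and 0 without M267, and 540 without Ctrl1, 0 without Ctrl2 and 0 without Ctrl3.

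The 6 genes of smallest p for this difference were Plvap, Sema3d, Lrg1, Pcdh12, Vegfa and Tnxb. Plvap, which forms the diaphragms of fenestrated endothelium (ENSMUSG00000034845), read 209.9 and 211 CPM in F270, 155 and 158 in F262, and 333 and 338 in M267 in the 12-library scaling. In the WT spleens it read 105 and 168, 115 and 211, and 104 and 192 CPM from section A to B. Every SB pair was level and every WT pair rose, and the difference of effects was -0.79 (SE 0.10, edgeR adjusted p = 0.036). Tnxb, the matrix protein tenascin-X, was at 24.7 and 24.7, 23.4 and 22.9, and 20.5 and 20.3 CPM in SB pairs and at 26.6 and 50.4, 17.7 and 54.9, and 16.8 and 56.5 in WT pairs (difference -1.45, SE 0.20, adjusted p = 0.041).

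Sema3d, a secreted guidance factor, was lower in section 2 of each SB spleen and higher in section B of each WT spleen (difference -2.07, SE 0.26, adjusted p = 0.036). Its SB pairs were 6.04 and 3.33, 15.6 and 11.3, and 5.497 and 2.75 CPM. Vegfa, the endothelial growth factor, had SB pairs of 42.4 and 35.1, 44.2 and 37.1, and 100.3 and 87.5 CPM and a difference of -1.05 (SE 0.15, adjusted p = 0.041). Lrg1, a secreted glycoprotein of vessels and neutrophils, and Pcdh12, an endothelial protocadherin, had differences of -0.97 and -1.65 (adjusted p = 0.036 and 0.041). Cdh5 was called as well, at -0.54 (adjusted p = 0.049), and missed the threshold with length and GC offsets (-0.43, adjusted p = 0.058). Pi4ka did not pass (0.16, adjusted p = 0.60).

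**Figure D5:**
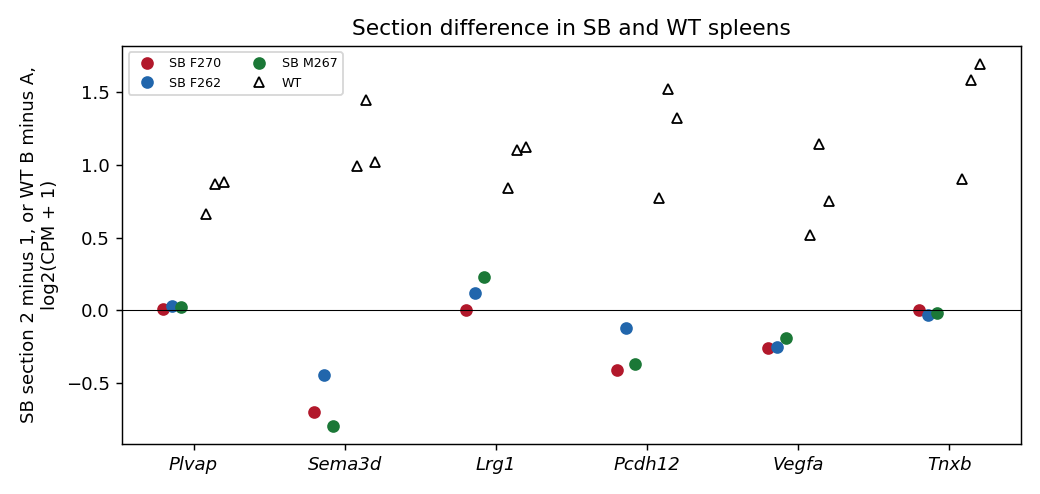
Section difference on the log2(CPM + 1) scale (vertical axis) of 6 genes with the smallest p for a difference between SB and WT section effects, 1 point per spleen. SB points (coloured) lie between -0.79 and 0.23 and WT points (triangles) between 0.52 and 1.69, without overlap for any of the 6 genes. The genes were picked by the p for this difference, so the separation follows from the choice.

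By list, 7 of 15 red pulp macrophage genes had an SB effect below the WT effect, beside 14 of the 15 called higher in WT section B. Over all genes these shares were 0.959% and 5.49%. C1qa, for example, went from 112 to 146, 96.4 to 183 and 104 to 186 CPM in WT spleens, and its adjusted p for the difference was 0.041. Of the 16 endothelial and sinus genes, 4 were below (Stab2, Tie1, Cdh5 and Kdr) and 7 were called higher in WT section B. Stab2, a scavenger receptor of sinus endothelium, was 0.12, 0.11 and 0.18 log2 units higher in SB section 2 and 0.66, 1.55 and 1.21 higher in WT section B. Of the 20 ribosomal protein genes, 4 had an SB effect above the WT effect (Rpl4, Rps3, Rps14 and Rps19) and 0 below. For all genes the share above was 0.268%. Malat1 was also above (adjusted p = 0.046), with WT differences of -0.27, 0.28 and -0.23. Of the 20 erythroid genes 0 were called for the difference, although 17 were called higher in WT section B.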

How the data were processed

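The deposited values are whole-number read counts per Ensembl gene, 1 column per piece, not normalized, as judged from the values. Libraries were unstranded and poly-A selected, per the labels' protocols, so a gene and its antisense partner cannot be told apart. STAR 2.5.3a, limma and the builds mm10 and GRCm38 are named in the submitters' processing notes, and the counting mode is not given in the sources used here. Of 32121 gene identifiers, 32026 were matched to GENCODE release 21 for symbols and coordinates.

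The 6 SB libraries were fitted with edgeR 4.0.16 in R 4.3.3 (TMM, filterByExpr, robust quasi-likelihood fit, two-sided, Benjamini-Hochberg adjusted p under 0.05) with the animal as block. The difference between genotypes was a term in a fit of all 12 libraries. Sections are paired by the animal in their titles, and deviations of sections of 1 spleen from the group means correlated at 0.94 to 0.96. CPM values use TMM-scaled library sizes, set separately for 6 and 12 libraries. Per-spleen differences use log2(CPM + 1), which understates changes of low genes. Distances use log2 CPM with a prior count of 2. SE were taken from the F statistic. limma 3.58.1 and DESeq2 1.42.0 served as alternatives, beside other scalings, filters and left-out spleens. The fit was tested on simulated data.

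The lists and the samples were chosen with earlier results of these data known. Genes named were, per direction, the 12 of smallest p with 1 sign in all spleens and a mean of at least 5 CPM, the 6 largest differences per spleen and direction with a mean of at least 10 CPM, members of lists by smallest p, Cdh5 and Pi4ka, and the 6 of smallest p for the difference between genotypes. Unnamed predicted genes and V segments were left out of the names. Other list members are examples chosen after their values were seen, as were CT010467.1, Gm26917, Xist, Ddx3y, Trbc1, V segments and genes high in 1 spleen. Of counts, at most 0.0271% fell on unmatched identifiers. Some results that the naming rule would give are not reported here.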

Additional observations from a re-analysis of the deposited data

Results flagged for a closer look

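The section effect differed between SB and WT spleens, by a test of the difference itself (edgeR, adjusted p under 0.05), for several named genes. The 7 given here are those named by smallest p for this difference, and Cdh5. Other named genes passed as well, with the SB effect below the WT effect (such as C1qa and Stab2) or above it (such as Malat1 and Rpl4). The SB effect minus the WT effect on the log2 scale was -0.79 for Plvap, -2.07 for Sema3d, -0.97 for Lrg1, -1.65 for Pcdh12, -1.05 for Vegfa, -1.45 for Tnxb and -0.54 for Cdh5. Each of the 7 was higher in section B of all 3 WT spleens. The test called 0 genes without M267, 0 without Ctrl2 and 0 without Ctrl3. Whether SB section 2 and WT section B match in position is not stated.

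The 44 gene lists were scanned for opposite signs, leaving out those with fewer than 3 tested genes. For 5 lists the median section difference had one sign in all 3 SB spleens and the opposite sign in all 3 WT spleens. This difference was not tested, and how many lists would show it by sign alone was not assessed. Some medians were near 0, such as -0.02 for endothelial genes in F262 and -0.04 for ribosomal proteins in Ctrl1. The mesothelial and stroma factor lists share Wt1. The SB median of the fitted log2 differences was -0.12 for plasma cell genes, -0.10 for endothelial and sinus genes, -0.47 for 4 mesothelial genes, -0.17 for spleen stroma identity factors and 0.33 for cytosolic ribosomal proteins. Library pair F270 had the strongest relation of section difference to transcript length among the 6 spleens (rho -0.36), and without it these medians were -0.22, -0.02, -0.16, -0.16 and 0.21.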

How the results depend on the processing

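The section comparison gave 0 calls with RLE size factors, a stricter filter, all 12 libraries, voom, a non-robust fit and length and GC offsets. It gave 30 calls with DESeq2, 618 with no low-count filter, and 54 to 806 with 1 spleen left out. The number at an unadjusted p under 0.05 was 1516 with DESeq2, 16 with no replicate block and 1312 to 3043 with 1 spleen left out. None of the 24 genes named for the section comparison by smallest p changed sign under the settings run for them. Nor did any of the 7 given for the difference between genotypes. The 24 were admitted only with the same sign in every spleen, and the 7, Cdh5 apart, by smallest p for that difference. Kept signs thus follow largely from the choice of genes and say little about robustness. With no replicate block (the animal left out of the pairing), 0 genes were called between sections and 0 for the difference between genotypes. The latter gave 1218 calls with no filter, 0 to 512 without an SB spleen, 0 to 540 without a WT spleen, and 275 with length and GC offsets. Genes unequal between spleens numbered 9368 to 13980. The mean section distance was 0.42 over all tested genes (1.39 to 1.67 between spleens) and 0.89 with a prior count of 0.5, and the SB minus WT distance was -0.046 over all tested genes.

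Genes 2-fold apart in F270 numbered 80 with a pseudocount of 5, 315 with a minimum of 1 CPM, 74 with 20 CPM and 1379 at 1.5-fold. In F262 they numbered 8, 0 and 38, and in M267 53, 8 and 124, for the last 3 of these settings. The cause of these changes was not tested, beyond the fewer or more genes each setting admits. Limits: 3 spleens, 1 library per section and no stated position of the pieces. Depth puts the floor of 3 counts at 0.136 to 0.195 CPM in SB libraries, so genes near 1 CPM rest on few counts.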

Other observations

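Other gene groups also had members at an unadjusted p under 0.05, where 7.74% of all genes were higher in section 2 and 7.37% lower. None of these members passed after adjustment. Of 10 heme synthesis genes, 4 were higher in section 2 (Alad, Urod, Slc25a38 and Ppox) and 2 lower (Cpox and Fech). Alad, an early enzyme of the pathway, read 398 and 548 CPM in F270, 915 and 1049 in F262, and 317 and 382 in M267. Cpox, a later one, read 148 and 68.9, 597 and 518, and 329.8 and 256 CPM. Members of 1 pathway thus lay on both sides. Of 19 immediate early genes, 3 were higher (Ier2, Jund and Klf2) and 1 lower (Klf6). The proliferation marker Mki67 was higher in section 2 of each SB spleen, at 518 and 706, 1864 and 2183, and 964 and 1192 CPM, while the mitotic cyclin gene Ccna2 was lower, at 167 and 109.6, 367 and 355, and 238 and 203 CPM. Muc6, a secreted gel-forming mucin gene with a high level in M267, read 356 and 581 CPM there, 34.9 and 42.4 in F270 and 2.62 and 5.42 in F262.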
